A study of Mus musculus with 6 samples.

Results

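The genes described here are Fgf5, Pim2, Otx2 and Foxd3, a set of 4 genes labelled as genes of the primed epiblast, taken by symbol from 31053 genes in 6 single-cell RNA libraries of mouse embryonic stem cells (ESC). Each symbol matched exactly 1 row. The libraries came from parental ESC and from ESC labelled Oct1_cKO, written cKO here (a conditional knockout of Oct1, the POU transcription factor encoded by Pou2f1). Each genotype was profiled as undifferentiated ESC and at day 3 and day 6 of differentiation towards mesoderm, with 1 library per group. The differentiated cells had been plated on 0.1% gelatin, kept in N2B27 medium with Bmp4 for 2 days, and then moved for 4 days to DMEM-based medium. That medium held Rspo3, an enhancer of Wnt signals, and the inhibitor LDN-193189, which blocks BMP receptors. The labels give this scheme for day 3 and day 6 alike. Its days add up to the day 6 course, and how far the day 3 cells had come in it is not stated. The labels do not say how Oct1 was deleted, which part of the gene was removed, or whether the cKO cells are 1 clone. By its title, the study asks how Oct1 works with Smad factors in mesodermal specification.

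UMIs (unique molecular identifiers) number the captured molecules. Barcodes with 1000 or more genes and no more than 10% of their UMIs from mitochondrial genes were taken as cells. Of 11046 barcodes 7096 were kept, between 530 and 1650 per library, with median depths from 30925 to 82544 UMIs per cell. Levels are CPM, the UMIs of a gene summed over kept cells and scaled to equal library totals, with 95% intervals in parentheses. With 1 library per group there is no test of genotype or stage, and all intervals cover counting error only. Markers followed the stage labels. Pou5f1, the core pluripotency factor, measured 682 and 790 CPM in parental and cKO ESC, 512 and 489 CPM at day 3, and 27.8 and 8.57 CPM at day 6, when the somite gene Meox1 measured 67.5 and 40.2 CPM. Pou2f1 was lower in cKO at each stage, at 30.1 against 21.5 CPM in ESC, 28.3 against 12.6 CPM at day 3 and 30.9 against 16.0 CPM at day 6. A 5′ tag outside the deleted part is counted whether or not that part is present. Sample titles begin with 17418 for the ESC libraries and with 17425 for the others, so stage and title prefix cannot be told apart in the step from ESC to day 3. Kept cells of any 2 libraries shared between 0 and 2 barcodes.

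ESC in culture resemble the naive epiblast of the blastocyst. After implantation the epiblast becomes primed: it remains pluripotent, gives up the naive transcription factors and becomes able to respond to signals that form the germ layers. Fgf5, a secreted fibroblast growth factor, is the usual marker of that state. Otx2, a homeodomain factor, helps drive entry into it and later patterns the anterior embryo. Pim2 is a serine/threonine kinase that promotes cell survival, and Foxd3 is a forkhead factor known both in ESC and epiblast and later in the neural crest.

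All 4 are protein-coding genes of the mm10 genome. Fgf5 (ENSMUSG00000029337) lies on chromosome 5 from 98254184 to 98277030 on the plus strand, in 2 annotated transcripts of 2 to 3 exons. Pim2 (ENSMUSG00000031155) lies on chromosome X from 7878262 to 7883432 on the plus strand, in 4 transcripts of 3 to 6 exons. Otx2 (ENSMUSG00000021848) lies on chromosome 14 from 48657677 to 48673819 on the minus strand, in 11 transcripts of 2 to 6 exons. Foxd3 (ENSMUSG00000067261) is a gene of 1 exon on chromosome 4 from 99656299 to 99658622 on the plus strand. The antisense gene Otx2os1 overlaps Otx2 and held at most 10 UMIs in any library.

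The upstream sequence of Pim2 is shown because it holds the octamer ATGCAAAT, the DNA element that POU factors such as Oct1 and Oct4 bind. The stretch is chrX:7878056-7878261 of GRCm38.p6, plus strand, from the RefSeq promoter table, and ends before the first base that the GENCODE annotation gives to a Pim2 transcript. It thus leaves off the last 44 bases before the RefSeq start, from which the positions below are counted. Capitals mark the octamers.
Pim2: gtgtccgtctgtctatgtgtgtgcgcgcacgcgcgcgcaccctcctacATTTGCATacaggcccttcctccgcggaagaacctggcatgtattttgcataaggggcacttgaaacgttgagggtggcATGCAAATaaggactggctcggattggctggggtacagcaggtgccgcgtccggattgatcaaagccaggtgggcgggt
The match at bases 202 to 195 before the RefSeq start reads on the minus strand, and the match at bases 123 to 116 reads on the plus strand. Among 32851 RefSeq promoters searched on both strands over the 250 bases before the start, 1.60% held this octamer and 0.0974%, which is 32 promoters, held 2 or more. The other members' windows, with every listed Otx2 promoter included, held no octamer, and allowing any base at position 5 (ATGCNAAT, which includes the octamer, in 2.86% of promoters) found the same Pim2 matches and no others. The Wnt effector motif ATCAAAG occurred once in the set, at bases 65 to 59 before the Pim2 start, against 3.21% of all promoters. The OTX motif TAATCC occurred once, in 1 of the listed Otx2 promoters, against 6.25% of all promoters. A match describes letters, and binding was not measured. Whether these octamers bear on the Pim2 level in either genotype was not tested.

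Fgf5, Pim2 and Otx2 peaked at day 3 in both genotypes, and Foxd3 did not. Among the stages sampled, 3 of the 4 thus had their highest level at day 3, while Foxd3 was highest in ESC and lower at each later stage. The members were chosen with earlier results of these data known, so this peak does not test the label of a primed gene.

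Fgf5 measured 0.308 CPM (0.197 to 0.458) in parental ESC and 0.308 CPM (0.159 to 0.538) in cKO ESC. At day 3 it reached 12.6 CPM (11.9 to 13.5) in parental cells and 10.8 CPM (10.1 to 11.5) in cKO cells, and at day 6 it stood at 0.823 and 0.410 CPM. The day 3 libraries stood above all others, and the ESC libraries, with 24 and 12 UMIs, could not be told apart. From ESC to day 3 the log2 ratio was 5.36 (4.78 to 6.01) in parental and 5.13 (4.32 to 6.09) in cKO, and from day 3 to day 6 it was −3.94 and −4.72.

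Pim2 measured 5.62 CPM (5.11 to 6.18) in parental ESC and 2.70 CPM (2.21 to 3.26) in cKO ESC. At day 3 it reached 123 CPM (121 to 126) in parental cells and 144 CPM (142 to 147) in cKO cells, and at day 6 it stood at 3.98 and 2.18 CPM. The order of the genotypes at day 3 was thus the reverse of that in ESC and at day 6. The counting intervals did not overlap at any stage, but at these depths small differences separate too. The Pou5f1 ratio at day 3 was −0.07, with an interval (−0.09 to −0.05) that also left out 0. Chromosome groups of parental cells, described below, spanned 2.85 to 7.67 CPM in ESC and 99.5 to 152 CPM at day 3. The cKO level lay within the day 3 span. In ESC it lay just below the span, but its interval (2.21 to 3.26) overlapped that of the lowest parental group (2.13 to 3.73), so these 2 levels could not be told apart. Whether the reversal exceeds the spread between libraries of 1 genotype was not tested. The log2 ratio from ESC to day 3 was 4.45 (4.31 to 4.59) in parental and 5.74 (5.46 to 6.03) in cKO, and from day 3 to day 6 it was −4.95 and −6.05.

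Otx2 measured 1.73 CPM (1.45 to 2.05) in parental ESC and 1.41 CPM (1.06 to 1.84) in cKO ESC. At day 3 it reached 8.75 CPM (8.11 to 9.44) in parental cells and 12.7 CPM (12.0 to 13.5) in cKO cells, and at day 6 it stood at 1.66 and 0.644 CPM. In parental cells the ESC and day 6 levels lay within each other's counting intervals. The log2 ratio from ESC to day 3 was 2.34 in parental and 3.17 in cKO, and from day 3 to day 6 it was −2.40 and −4.30.

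Foxd3 measured 16.9 CPM (16.0 to 17.8) in parental ESC and 11.2 CPM (10.2 to 12.3) in cKO ESC. At day 3 it measured 5.04 and 5.11 CPM, and at day 6 0.447 and 0.146 CPM. It thus went down at both steps in both genotypes, with log2 ratios from ESC to day 3 of −1.74 (−1.91 to −1.58) in parental and −1.13 (−1.33 to −0.94) in cKO, and from day 3 to day 6 of −3.49 and −5.13.

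**Figure D1:**
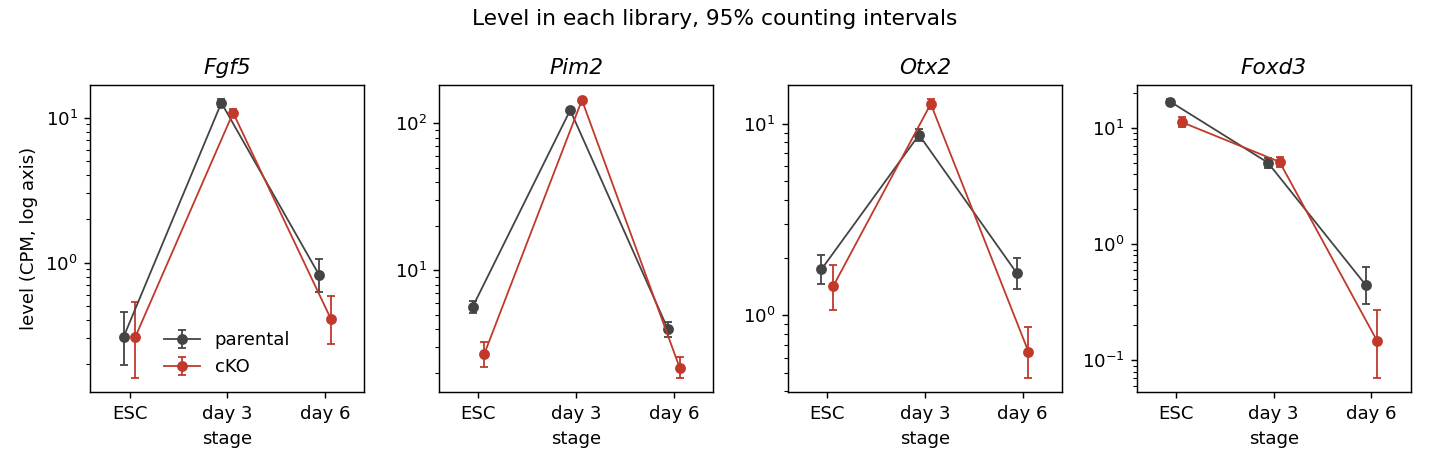
Level of Fgf5, Pim2, Otx2 and Foxd3 in CPM on a log axis at the ESC, day 3 and day 6 stages, parental in grey and cKO in red, with 1 library per point and bars for the 95% counting interval. Fgf5, Pim2 and Otx2 are highest at day 3 in both genotypes, and Foxd3 is highest in ESC.

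A gene was counted as higher or lower where 2 libraries were at least 2-fold apart and the higher of them reached 5 CPM. From ESC to day 3, 3 of 4 members were higher and 1 lower in each genotype. Of all genes that reached 5 CPM in either library, 7.56% were higher and 10.7% lower in parental, and 8.73% were higher and 13.1% lower in cKO. Fgf5 and Otx2 in both genotypes, and Pim2 in cKO, were under 5 CPM in ESC and entered the count only through day 3, where they were high, so the filter fixed their direction. From day 3 to day 6, 0 members were higher and 4 of 4 lower in each genotype, while 18.3% of genes were higher and 5.41% lower in parental and 23% were higher and 7.72% lower in cKO. No member reached 5 CPM at day 6, so each entered only through day 3 and none could have been counted as higher. The count therefore describes the levels given above and is no support for a direction. The parental and cKO courses share no library, but the steps within a genotype share the day 3 library. With TMM factors the median of all genes from day 3 to day 6 moved from 0.22 to −0.03 in parental and from 0.26 to −0.03 in cKO. The share of higher genes among those called then went from 77.2% to 62.1% in parental and from 74.9% to 56.4% in cKO, and 4 of 4 members were lower in both. Foxd3 enters this count at 5.04 and 5.11 CPM at day 3, close to the limit of 5, and the count was 3 in both genotypes with a stricter cell filter.

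Between genotypes, Pim2 in ESC was the only member past 2-fold with enough counts. The log2 ratio of cKO over parental was −1.06 (−1.38 to −0.75), from 105 and 438 UMIs, just past the limit of 1. In ESC 2 members were tested, 0 were higher and 1 was lower, beside 1.4% of genes higher and 2.66% lower in cKO. That background depends on the cells kept, since 1.69% were higher and 0.701% lower without cells holding 3 fibroblast genes, and 3.75% and 1.94% with the stricter cell filter. Foxd3 had a log2 ratio of −0.59 (−0.75 to −0.43) in ESC and was not past the limit, and Fgf5 and Otx2 were under 5 CPM in both ESC libraries. The Pim2 call was lost without barcodes of more than 2 times the median UMIs (4.84 against 2.50 CPM) and with equal weight per cell (−0.92). It was also lost in cells of neither chromosome group, described below (−0.72). The fibroblast list was lower in cKO ESC for 9 of 9 genes tested, with a median of −5.15, and without cells holding such genes the Pim2 ratio was −1.08.

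At day 3 all 4 members were tested and 0 were called in either direction, beside 0.258% of genes higher and 0.594% lower in cKO. With TMM factors the higher share of the called genes at day 3 moved from 30.3% to 47.8%, and the median of all genes from −0.06 to 0.04. The log2 ratio was 0.54 (0.40 to 0.68) for Otx2, which lay above 98.2% of genes tested, 0.23 (0.19 to 0.27) for Pim2, −0.23 (−0.36 to −0.10) for Fgf5 and 0.02 (−0.18 to 0.22) for Foxd3. The streak list had 3 of 6 genes lower in cKO at day 3, and its part in the Fgf5 ratio was not tested. At day 6 no member reached 5 CPM in either library, so 0 could be called in either direction, beside 5.63% of genes higher and 6.76% lower in cKO. Each of the 4 was lower in the cKO library at day 6, by 2.01-fold for Fgf5, 1.83-fold for Pim2, 2.58-fold for Otx2 and 3.06-fold for Foxd3. The values of Fgf5, Otx2 and Foxd3 rest on few cells, as described below, whereas Pim2 was found in 179 parental and 125 cKO cells.

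The shares of cells with a UMI separate Pim2 from the other members. Each cell was thinned to 20000 UMIs and shallower cells were left out, which removed 197 and 71 cells in parental and cKO ESC, 133 and 47 at day 3, and 480 and 705 at day 6. At day 3, 74.7% of parental cells (71.6 to 77.7) and 81.2% of cKO cells (78.6 to 83.6) then held a Pim2 UMI, and 55.2% and 64.0% held at least 2. The share with a UMI was 6.48 points higher in cKO (2.64 to 10.4), and unthinned the shares were 83.1% and 90.7%. Fgf5 was found in 14.4% and 15.5% of thinned day 3 cells (29.2% and 33.7% unthinned). Otx2 was found in 12.3% and 15.02% (22.9% and 29.5% unthinned), a difference of 2.75 points (−0.47 to 5.90), and Foxd3 in 7.85% and 7.76% (18.2% and 16.8% unthinned). Pim2 was thus detected in most day 3 cells, and the other members in a minority at this depth.

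In ESC, Foxd3 was found in 22.9% of thinned parental cells (20.6 to 25.4) and 15.03% of cKO cells (11.9 to 18.6), and unthinned in 38.04% and 31.3%. The difference of −7.90 points was −3.20 points with cells thinned to 10000 UMIs. Pim2 was found in 8.59% and 4.14% (20.8% and 15.1% unthinned), Otx2 in 2.67% and 2.83% (5.44% and 7.17% unthinned) and Fgf5 in 0.584% and 0.436% (1.65% and 1.51% unthinned). As a rough guide to free RNA, 99 parental ESC-stage cells held UMIs of at least 3 fibroblast genes, at a median of 52625 UMIs against 56866.5 in the other cells. Foxd3 was found in 2.02% of them against 24.8% of the others, Pim2 in 3.03% against 9.09%, and Otx2 in 0 of 99 (at most 3.66% by the exact interval) against 2.91%. Fgf5 was found in 2.02% of the fibroblast-marker cells against 0.455% of the others. These shares rest on 7 Fgf5 cells in all, too few to set Fgf5 in parental ESC above or below a background. Whether the Fgf5 UMIs of the fibroblast-marker cells are free RNA was not tested. Only 1 cKO ESC held such markers.

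Otx2 met Foxd3 and Fgf5 in the same day 3 cells more often than the product of their shares. Otx2 and Foxd3 were both found in 20 parental cells, where the product of the shares gives 7.85, and in 20 cKO cells, where it gives 11.4. Fgf5 and Otx2 were both found in 23 parental cells against 14.4 and in 44 cKO cells against 22.8. Fgf5 and Foxd3 did not follow this, with 7 parental cells against 9.19 and 12 cKO cells against 11.8. Pairs with Pim2 lay nearer the product than the pairs with Otx2 named above. But Pim2 was found in 74.7% and 81.2% of these cells, which caps how far such a pair can exceed the product. Nearness to the product therefore does not show that Pim2 met the other members less strongly. Fgf5 and Pim2 were both found in 109 of 117 parental Fgf5 cells, where the product gives 87.4. In cKO they were both found in 139 of 152 Fgf5 cells, where it gives 123. For Pim2 with Otx2 or with Foxd3, the product lay within the interval of the share in both libraries. That interval takes no account of the single shares, so it cannot decide whether these pairs met more often than the product. Of the Otx2 cells, 83 of 100 in parental and 136 of 147 in cKO held Pim2, beside 609 of 815 and 795 of 979 cells in all. Of the thinned day 3 cells, 5.28% of parental and 6.33% of cKO held at least 3 of the 4 members, whereas 21.1% and 16.0% held none. At the other stages 0 cells held 3.

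Within the day 3 libraries, Fgf5 and Foxd3 were placed on opposite sides of the primitive streak genes, the genes of the structure through which epiblast cells become mesoderm. Cells were split by whether they held, after thinning, UMIs of at least 3 of 9 streak genes (T, Mixl1, Eomes, Fgf8, Wnt3a, Sp5, Tbx6, Cdx2 and Nkx1-2). Such cells made up 28.8% of 815 parental and 15.02% of 979 cKO cells. Fgf5 measured 21.4 CPM in the streak-marker cells and 8.85 CPM in the others in parental, a log2 ratio of 1.27 (1.09 to 1.46). In cKO the levels were 20.3 and 9.05 CPM (1.17; 0.96 to 1.38). The same split gave Foxd3 3.83 against 5.57 CPM in parental (−0.54; −0.90 to −0.20) and 2.00 against 5.69 CPM in cKO (−1.51; −2.14 to −0.93). Median depth was 93218 against 86682 UMIs in parental and 84779 against 80190.5 in cKO.

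Pim2 was slightly higher in the streak-marker cells of the parental library, at 136 against 117 CPM (0.22; 0.15 to 0.28). In cKO it measured 148 against 144 CPM, with an interval that held 0 (0.04; −0.03 to 0.11). Otx2 measured 7.27 against 9.41 CPM in parental (−0.37; −0.63 to −0.12) and 11.3 against 12.9 CPM in cKO (−0.19; −0.45 to 0.06). The naive list at day 3 held Klf2 at 127 and 190 CPM in parental and cKO. Klf4 measured 9.74 and 4.58 CPM and Esrrb 3.36 and 2.75 CPM, so holding 3 of these genes does not make a cell naive. By this list, whose marker cells were 58.5% of parental and 56.9% of cKO day 3 cells, Fgf5 went the opposite way to its streak ratio. It measured 9.67 CPM in cells with at least 3 naive genes against 16.8 CPM in the others in parental (−0.79; −0.98 to −0.61), and 9.40 against 12.6 CPM in cKO (−0.42; −0.61 to −0.23). Foxd3 was slightly higher in those cells, at ratios of 0.34 (0.03 to 0.65) and 0.42 (0.13 to 0.71). The neural list gave Fgf5 opposite signs, −0.63 (−0.94 to −0.34) in parental and 0.41 (0.15 to 0.68) in cKO.

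**Figure D2:**
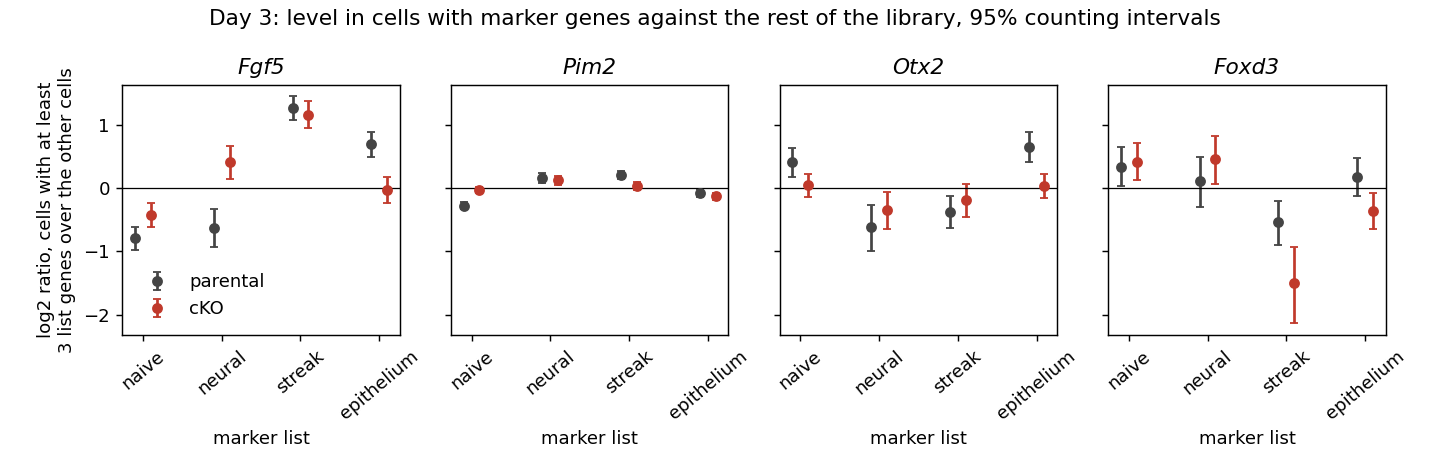
Log2 ratio of the level in day 3 cells that hold 3 or more genes of a marker list (naive, neural, streak, epithelium) over the other cells of the library, parental in grey and cKO in red, with bars for the 95% counting interval. Fgf5 is above 0 for the streak list in both libraries (1.27 and 1.17) and Foxd3 below 0 (−0.54 and −1.51).

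The parental day 3 library held a further division that touches these values. Cells were grouped by the share of their UMIs from chromosomes 1, 6 and 8 against chromosome 11, each share taken as a log2 ratio to that of the median cell in the cKO library, with limits of 0.25 on the score. These groups are ranges of a score. None of the members lies on these chromosomes. Of 948 parental cells, 502 had chromosomes 1, 6 and 8 high, 318 had chromosome 11 high and 128 had neither. Of 1026 cKO cells, 967 had neither.

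Fgf5 measured 6.78 CPM (5.98 to 7.65) in parental day 3 cells with chromosomes 1, 6 and 8 high, 21.4 CPM (18.9 to 24.2) in those with neither and 17.2 CPM (15.7 to 18.9) in those with chromosome 11 high. Pim2 measured 99.5, 135 and 152 CPM in the same order, Otx2 7.67, 10.6 and 9.49 CPM, and Foxd3 4.65, 5.80 and 5.27 CPM. Each member was lowest in the cells with chromosomes 1, 6 and 8 high, but for Foxd3 the intervals of all 3 groups overlapped, and for Otx2 those of the groups with a high chromosome. In cells of neither group alone, the day 3 log2 ratio of cKO over parental was −0.96 for Fgf5 (21.4 against 10.96 CPM), against −0.23 over all cells, and 0.10 for Pim2 and 0.30 for Otx2. The higher Fgf5 level in streak-marker cells was seen within each group. The log2 ratio was 1.86 (1.49 to 2.23) with chromosomes 1, 6 and 8 high, 1.30 (0.93 to 1.66) with neither and 1.07 (0.80 to 1.34) with chromosome 11 high. Pim2 was above 0 in each group as well, at 0.12 (0.02 to 0.21), 0.30 (0.14 to 0.45) and 0.30 (0.21 to 0.40) in the same order. Otx2 varied between the groups on the same split, at −1.29 (−1.78 to −0.84), −0.08 (−0.73 to 0.52) and 0.37 (−0.01 to 0.75). The Foxd3 ratio was −0.98 (−1.57 to −0.44), −0.75 (−1.83 to 0.20) and 0.02 (−0.52 to 0.55). These splits within chromosome groups were added after the data were seen.

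**Figure D3:**
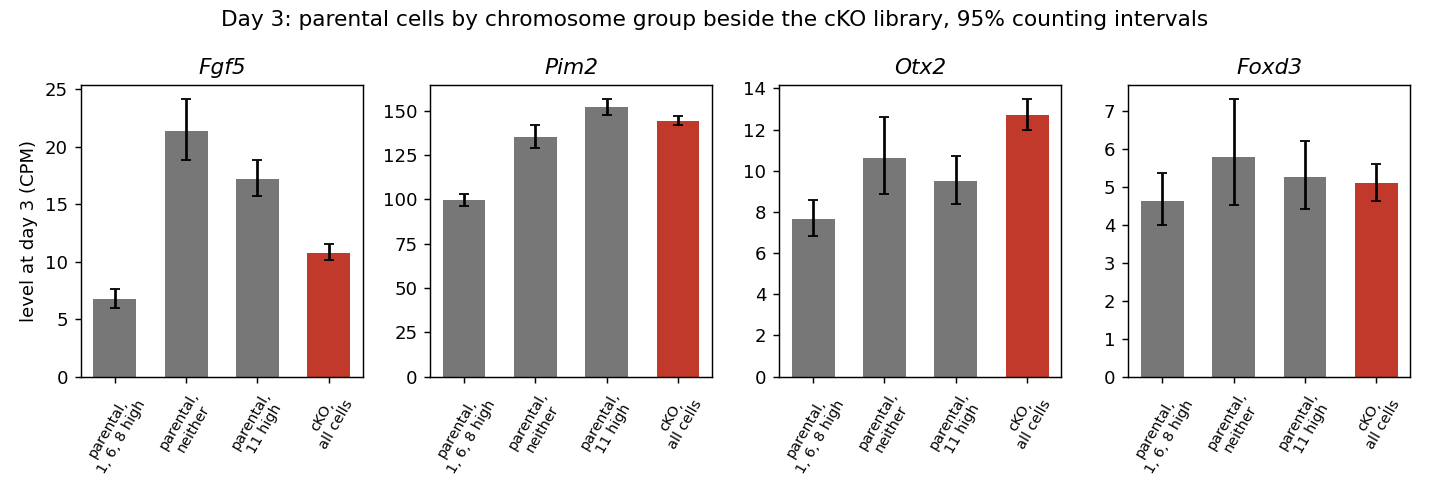
Level in CPM at day 3 in the 3 chromosome groups of the parental library (grey) and in the whole cKO library (red), with bars for the 95% counting interval. Fgf5 spans 6.78 to 21.4 CPM among the parental groups, on both sides of the cKO library at 10.8 CPM.

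In parental ESC the chromosome groups also differed. Pim2 measured 7.67 CPM in the 601 cells with chromosome 11 high, 4.40 CPM in the 410 cells with neither and 2.85 CPM in the 385 cells with chromosomes 1, 6 and 8 high. The cKO ESC library measured 2.70 CPM (2.21 to 3.26), which overlapped the interval of parental cells with chromosomes 1, 6 and 8 high (2.13 to 3.73). Its 492 cells with neither measured 2.67 CPM. Otx2 ran the other way, at 0.582, 3.12 and 2.46 CPM, and Foxd3 measured 17.9, 13.3 and 19.0 CPM. What part these groups have in the genotype ratios of the library sums was not tested beyond the values in cells of neither group.

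By day 6 the remaining UMIs of Fgf5, Otx2 and Foxd3 lay in a handful of cells. In the parental library 12 of 1546 cells held Fgf5, 24 held Otx2 and 12 held Foxd3. In cKO the counts were 17, 13 and 5 of 1650 cells. A single parental cell held 45 of the 57 Fgf5 UMIs (78.9%) and 36 of the 115 Otx2 UMIs (31.3%). It had 103363 UMIs in all, 0 of Pim2, Foxd3, Pou5f1 and Nanog, and 81 of Sox17, 20 of Foxa2 and 12 of Cer1, which are endoderm genes. A cKO cell resembled it, with the most Fgf5 (8 of 28) and Otx2 (12 of 44) UMIs of its library, 0 of Pou5f1, 110 of Sox17 and 14 of Foxa2. These cells were looked up after the values were seen.

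Over all deeper cells, 6 parental and 10 cKO day 6 cells held at least 3 of 8 endoderm and axial genes after thinning. The 6 parental cells held 46 of 57 Fgf5 UMIs and 40 of 115 Otx2 UMIs, and 0 of Pim2 and Foxd3. The 10 cKO cells held 10 of the 25 Fgf5 UMIs of cKO cells this deep and 17 of 44 Otx2 UMIs, and again 0 of Pim2 and Foxd3.

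The next largest Otx2 cells in each day 6 library were of another kind. The parental cell with 21 Otx2 UMIs held 13 of Pou5f1, 44 of Utf1 and 19 of Tdgf1, and the cKO cell with 6 held 60, 43 and 20, so these cells carried pluripotency genes. Of the 115 parental Otx2 UMIs, 62 lay in the 90 cells with at least 3 naive genes. How many cells carry both naive and endoderm genes was not counted. Foxd3 also had its largest cKO cell, with 6 of 10 UMIs, among cells with many pluripotency UMIs (94 of Pou5f1 and 63 of Utf1). In parental the largest Foxd3 cell held 12 of 31 UMIs, with 0 of Pou5f1 and 9 of Sox1, and 0 of Sox10. Foxd3 is also known to act in the neural crest. At day 6, 213 parental and 76 cKO cells held at least 3 genes of the neural crest list, with 2 and 0 Foxd3 UMIs. On that list Sox10 measured 0.808 and 0.454 CPM in parental and cKO, and Pax3 51.0 and 20.7 CPM. The count therefore does not show that these cells were neural crest.

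Pim2 was spread more widely at day 6. It was found in 179 parental and 125 cKO cells, its largest cells held 37 of 276 UMIs (13.4%) and 3 of 149 (2.01%), and 50% of the UMIs lay in 41 and 51 cells. For comparison, 50% of the Fgf5 UMIs at day 6 lay in 1 parental and 4 cKO cells, and at day 3 in 47 and 68 cells. Leaving out of each library the cell with most UMIs of the member, a choice made after the data were seen, turned the day 6 log2 ratio of Fgf5 from below 0 to 0.76. The ratios of Pim2, Otx2 and Foxd3 became −0.69, −1.28 and −2.23. Without barcodes of more than 2 times the median UMIs the Fgf5 ratio was 1.66, and no doublet caller was run.

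**Figure D4:**
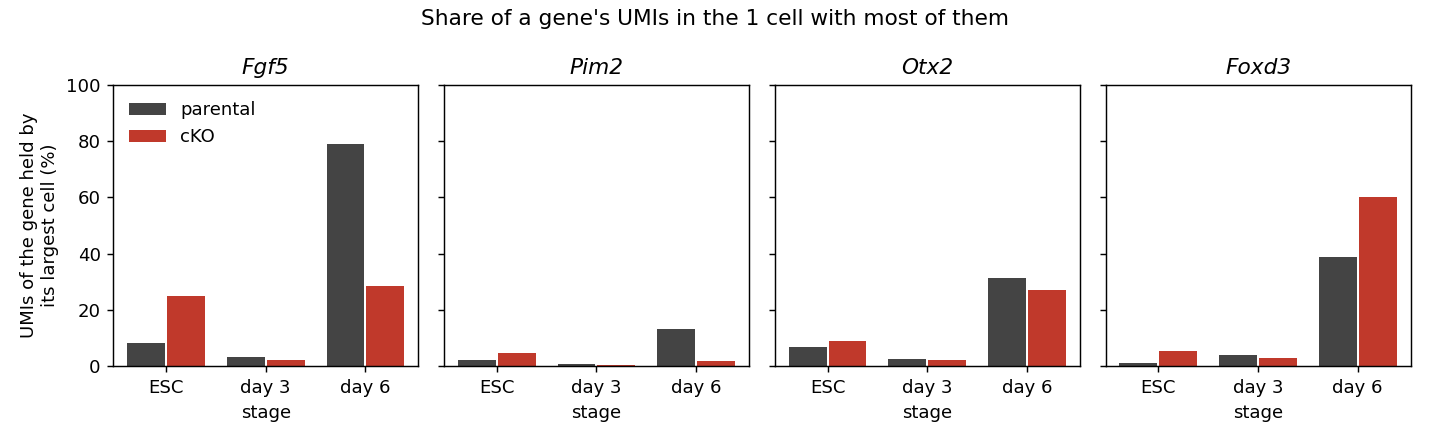
Share of a gene's UMIs, in percent, held by the 1 cell with most of them in each library, parental in grey and cKO in red. At day 6 the largest parental cell holds 78.9% of Fgf5 UMIs, against 13.4% for Pim2.

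Among 14 other genes of the primed epiblast (Pou3f1, Dnmt3a, Dnmt3b, Sox3, Zic2, Zic5, Sall2, Lef1, Cdh2, Fgf15, Tead2, Lin28b, Etv4 and Nodal), 13 were tested from ESC to day 3. Of these, 10 were higher and 0 lower in each genotype. The median log2 ratio was 2.22 in parental and 2.33 in cKO. Of all genes, 7.56% were higher and 10.7% lower in parental, and 8.73% and 13.1% in cKO. Sox3 and Sall2 were under 5 CPM in ESC and entered only through day 3, so the filter fixed their direction. This list too was chosen with earlier results of these data known, so the count is no independent support for the primed label. Pou3f1, a POU factor of epiblast and neural precursors, measured 7.27 and 7.55 CPM in parental and cKO ESC and 188 and 170 CPM at day 3. Dnmt3b, a de novo DNA methyltransferase, measured 47.6 and 41.0 CPM in ESC and 373 and 354 CPM at day 3. From day 3 to day 6, 1 of 13 was higher and 8 lower in parental, and 1 was higher and 7 lower in cKO. Of all genes, 18.3% were higher and 5.41% lower in parental, and 23% and 7.72% in cKO. In cKO, Sox3, Zic2, Zic5 and Etv4 were under 5 CPM at day 6 and entered only through day 3. The gene called higher was Cdh2, the N-cadherin of neural and mesodermal cells, in both genotypes. It went from 9.71 to 90.6 CPM in parental and from 5.82 to 33.3 CPM in cKO.

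Between genotypes, 0 of 11 of these genes were called in ESC and 0 of 13 at day 3. At day 6, 1 was higher in cKO and 5 were lower, beside 5.63% of all genes higher and 6.76% lower. The median was −0.35 beside −0.05 over all genes. At that stage Pou3f1 measured 39.2 CPM in the parental library and 152 CPM in the cKO library. Sox3, a SoxB factor of neural progenitors, measured 41.5 and 1.77 CPM, and Zic5 7.68 and 2.33 CPM. The neural list had 10 of 10 genes lower in cKO at day 6 and the epithelium list 8 of 9 higher. The part of these differences in the members' day 6 ratios was not tested.

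Of the naive genes, 12 of 14 were lower from ESC to day 3 in parental and 11 of 14 in cKO, with 2 and 1 higher. Of all genes, 10.7% and 13.1% were lower. Naive genes under 5 CPM at day 3, such as Esrrb, entered only through ESC. Foxd3 thus followed the direction of that list. Foxd3 and the other members did not move alike across the 6 libraries. Pearson's r of log2(CPM + 1) over 6 libraries was 0.98 for Fgf5 and Pim2, 0.99 for Pim2 and Otx2 and 0.96 for Fgf5 and Otx2, but 0.08, 0.22 and 0.27 for Foxd3 with Fgf5, Pim2 and Otx2. These values describe 6 points that fall into 3 stages, and each library enters both genes.

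By the same measure, among 10312 genes, those most like Fgf5 were Lef1, Tdrd5, Jph4, Tfam and Wnt8a (r from 0.992 to 0.997). Lef1, a nuclear effector of Wnt signalling, measured 13.8 and 11.6 CPM in ESC, 65.7 and 59.5 CPM at day 3, and 14.4 and 12.5 CPM at day 6. Those most like Pim2 were Wnt8a, Ppil1, Hgh1, Ppp4r4 and Yars2. Wnt8a, a secreted Wnt ligand, measured 1.36 and 0.616 CPM in ESC, 26.3 and 27.6 CPM at day 3, and 1.31 and 0.776 CPM at day 6. Those most like Otx2 were Mrto4, Pbdc1, Pqbp1, Maz and Mrps15, and those most like Foxd3 were Lrrc75aos2, Enc1, Ankrd35, Gtf2f1 and Dcaf1. With 6 libraries many genes reach such values, and only 1 to 3 of the 5 remained for each member with a pseudocount of 0.1 CPM.

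The relatives of the members followed mixed courses, with Pim1 highest at day 3 as Pim2 was. The kinase gene Pim1 measured 51.4 and 66.9 CPM in parental and cKO ESC, 107 and 125 CPM at day 3, and 58.7 and 75.5 CPM at day 6. Pim3 measured 74.1 and 99.9 CPM in ESC and 29.9 and 30.8 CPM at day 3, lower at the step at which Pim2 was higher. Foxd1 measured 20.8 CPM in parental ESC, 136 CPM in cKO ESC and 1.03 CPM in both at day 3. It was thus lower at that step, as Foxd3 was, but measured 19.6 and 18.3 CPM in parental and cKO at day 6. Fgf4, the FGF ligand of naive cells, measured 72.0 and 70.3 CPM in ESC and 5.70 and 7.12 CPM at day 3, a step at which Fgf5 went the other way. Of the FGF and ERK response genes, 3 of 8 were higher from ESC to day 3 in each genotype, with 0 lower in parental and 2 lower in cKO, and 0 of 8 were called between genotypes at day 3. Of 7 genes of the LIF and STAT3 pathway, which maintains naive cells and includes Pim1 and Pim3 as response genes, 1 was higher and 4 were lower from ESC to day 3 in parental, and 0 were higher and 5 lower in cKO. Otx1 stayed under 1 CPM in every library and Crx had 0 UMIs.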

How the data were processed

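Cell Ranger and the mm10 build are named in the submitters' processing notes, and version 3.1.0 stands in the file headers. The deposited values are whole-number UMI counts per gene and cell barcode, from a 10x Genomics 5′ kit; settings of the aligner and of strand are not given in the sources used here. The members and all gene lists were chosen with earlier results of these data known, and 1 gene of the list of other primed genes is not reported here and entered no count of it. UMIs were summed over kept cells and scaled to CPM. CPM carry exact Poisson, log2 ratios exact conditional binomial and shares Clopper-Pearson 95% intervals, which cover counting error only; a library with 0 UMIs was set to 3 counts. The ratio and interval code was tested on simulated data. Libraries held 41665721 to 85102600 deposited UMIs. Thinning drew 20000 UMIs per cell without replacement. No cells were clustered, and cells with marker genes are ranges of a marker count, not cell types. GENCODE M21 gave positions for 30934 of 31053 genes, and all 4 members matched the RefSeq promoter table. Named are the 4 members, up to 3 called genes per list and comparison with the largest ratios, and the 5 genes most like each member; paralogs, markers and the genes of the largest cells were named after their values were seen. Alternatives changed scaling (TMM by edgeR 4.0.16, or median of ratios), cell filters, call limits, thinning depth and marker number. Python 3.11.15, numpy 2.4.6, pandas 2.3.3 and scipy 1.17.1 were used.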

Additional observations from a re-analysis of the deposited data

Results flagged for a closer look

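Pim2 lay on opposite sides of equality in the genotype comparison at different stages. The log2 ratio of cKO over parental was −1.06 in ESC and 0.23 at day 3, and neither counting interval held 0. At these depths an interval can leave out 0 for a small ratio, as for Pou5f1 at day 3 (−0.07). The difference between the stages was not tested, since each stage has 1 library per genotype. The stages also differ in the prefix of the sample titles.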

How the results depend on the processing

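With TMM or median-of-ratios factors, all deposited barcodes, the stricter cell filter, without fibroblast-marker cells, and without the largest cell of each member (added after seeing the data), the counts of called members stayed the same or within 1.5 times in every comparison. With at least 20 CPM, only Pim2 was above the limit, and only at day 3. No member could then be called between genotypes in ESC, so 0 were lower in cKO ESC. From ESC to day 3, 1 was higher and 0 lower, and from day 3 to day 6, 1 was lower, in each genotype. The limit fixed these directions. At 1.5-fold 2 members were lower in cKO ESC, beside 4.73% of all genes higher and 5.67% lower. The count of lower members was 0 without barcodes over 2 times the median UMIs, in cells of neither chromosome group and with equal weight per cell. Equal weight per cell also left 0 members lower from ESC to day 3 in cKO (Foxd3, −0.94). When marker cells needed at least 2 genes, 5 day 6 values reversed: in parental, Fgf5 and Otx2 by other primed genes (−1.20 and −0.19) and by fibroblast genes (4.76 and 0.0069), and in cKO, Fgf5 by other primed genes (−1.01). The cause was not tested. Thinning to 10000 UMIs left 11 of 12 genotype differences in shares within their intervals and moved that of Foxd3 in ESC from −7.90 to −3.20 points. No paired analysis was possible because each group holds 1 library, and no library could be left out for the same reason. Depth limits Fgf5 and Otx2 in ESC, Pim2 in cKO ESC and every member at day 6, where a library held between 10 and 276 UMIs of a member.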
